A study of Mus musculus with 32 samples.

Results

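The comparison described here set Epcam+ lung cells against CCL206 fibroblasts that had grown in the same vehicle-treated co-cultures, over every gene in the count table. Its members were the 8 vehicle libraries among the 32 libraries of the series, 4 from the Epcam+ fraction and 4 from the CCL206 fraction, joined in 4 pairs by mouse number. Of the 11818 genes in the table, 11749 entered the test. The series measured bulk RNA sequencing of both fractions after culture with vehicle, extracellular vesicles (EVs) or soluble factors (SFs) of the human lung fibroblast line MRC5, or osteoglycin (OGN), a secreted proteoglycan. The question put to the data here is how far the transcriptomes of the epithelial and the supporting compartment stood apart without any of these agents.

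Epcam+ cells were freshly taken from the lungs of naive adult C57BL/6 J mice by magnetic depletion of CD31+ and CD45+ cells and capture of CD326+ cells, CD326 being the surface protein that Epcam encodes. CCL206 (Mlg2908) is a mouse lung fibroblast line, so every fibroblast library came from 1 line, and its proliferation had been inactivated with mitomycin C, a DNA crosslinker. Equal numbers of both were mixed in Matrigel, a basement membrane extract, and kept with vehicle for 72 h. The medium of the organoid protocol held serum, EGF, insulin, transferrin, selenium and pituitary extract. The gels were then dissolved with dispase and trypsin, and CD326 beads separated the Epcam+ fraction from the CD326- remainder, which is the CCL206 fraction. Both groups therefore shared the culture, the agents and the second sort, and neither is a cell type taken directly from tissue. The labels give the mouse number of each culture and no sex.

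Alveolar type 2 (AT2) cells secrete surfactant and act as progenitors of the flat alveolar type 1 (AT1) cells, whereas club, ciliated and basal cells line the airways. Epithelial cells are joined by tight junctions and desmosomes and rest on a basement membrane. Fibroblasts, the mesenchymal cells of the alveolar niche, lay down collagen and other matrix and send growth factors whose receptors sit on the epithelium.

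Library totals ran from 3067660 to 16662822 counts in the Epcam+ fraction and from 7148561 to 10496280 in the CCL206 fraction, the largest being that of mouse 1. Spearman correlations over the 11749 genes were 0.973 to 0.987 between Epcam+ libraries, 0.985 to 0.994 between CCL206 libraries and 0.765 to 0.834 across the fractions. No 2 libraries of a fraction agreed within counting noise, with chi-square values of 4.32 to 16.2 per degree of freedom. The levels below are CPM, counts scaled to a common library size, always listed for mice 1, 2, 3 and 4 in that order. TMM factors were used for the vehicle libraries, and levels in treated cultures are plain CPM without them. Log2 fold changes are Epcam+ minus CCL206 and come from edgeR's paired quasi-likelihood test with Benjamini-Hochberg adjustment over all genes tested, with the standard error (SE) derived from its F statistic. A gene was called at an adjusted p under 0.05.

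The sorted gene itself marked the fractions. Epcam stood at 279.5, 318, 317 and 260.4 CPM in the Epcam+ libraries and at 15.6, 11.9, 12.6 and 6.89 CPM in the CCL206 libraries, with no overlap (exact two-sided permutation test over the 8 libraries, p = 0.0286, the smallest p that 4 against 4 allows; n = 4 per group). Exchanging the fractions only within the 4 pairs gave an exact p of 0.125, the smallest that 4 pairs allow (n = 4). Because the sort selected on the protein of this gene, both tests check the labels only. Transcripts of the sex chromosomes also differed. Xist, the RNA made from an inactive X chromosome, reached 321, 304, 358 and 523 CPM in Epcam+ libraries against 2368, 2240.5, 1968 and 2401 CPM in CCL206 libraries. Ddx3y, an RNA helicase gene on the Y chromosome, reached 51.4, 52.1, 55.4 and 45.6 CPM against 7.07, 4.21, 3.60 and 1.40 CPM. Eif2s3y, a Y-linked translation factor gene, reached 46.4, 55.4, 53.1 and 39.6 CPM against 5.33, 4.35, 4.74 and 2.70 CPM. All 4 Epcam+ libraries therefore held Y-linked transcripts at similar levels, and each fraction held a minor amount of the transcripts that were high in the other one.

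Of the markers of cells that the sorts should remove, few could be read, because genes with a count of 0 in any library are not in the table. From 12 endothelial genes, Esam and Vwf were present, with a summed level of 26.5 to 45.1 CPM in Epcam+ and 7.69 to 19.4 CPM in CCL206 libraries. Only Lcp1 and Cd68 remained of 15 leukocyte genes, at 124 to 148 and 19.5 to 33.7 CPM, and Ptprc, which encodes CD45, and Pecam1, which encodes CD31, were absent from the table. Of 9 mesothelial genes, the genes Msln, Upk1b and Krt19 were tested and all were higher in Epcam+ cells. Msln, the mesothelin gene, stood at 374, 414, 470.3 and 417 CPM against 53.3, 60.6, 63.7 and 58.1 CPM (log2 fold change 2.83 ± 0.07, adjusted p = 5.1e-10). Wt1, Upk3b and the other defining mesothelial genes were not in the table.

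Most genes differed between the fractions. Of the genes tested, 4179 (35.6%) were higher in Epcam+ cells and 4210 (35.8%) were higher in CCL206 cells, and at more than 2-fold these numbers were 1918 (16.3%) and 1894 (16.1%). For 7753 genes (66.0%) the 4 values of one fraction lay entirely above the 4 of the other. These shares are the background for every count of list members below. The median log2 fold change over all genes was -0.000309. The calls were nearly equal in number, yet the far ends were not alike: 126 genes were more than 16-fold higher in Epcam+ cells and 1 was more than 16-fold higher in CCL206 cells, with extremes of 8.31 and -4.002 on the log2 scale. Where bulk fractions are compared, fewer cells of a type and less RNA per cell cannot be told apart. The gene lists below were compiled from general knowledge of what the genes do, but with earlier results of these data known. Their counts therefore describe the data without independent support. The p-values rest on the spread between the 4 cultures, with the variance of each gene drawn toward a trend over all genes tested.

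**Figure D1:**
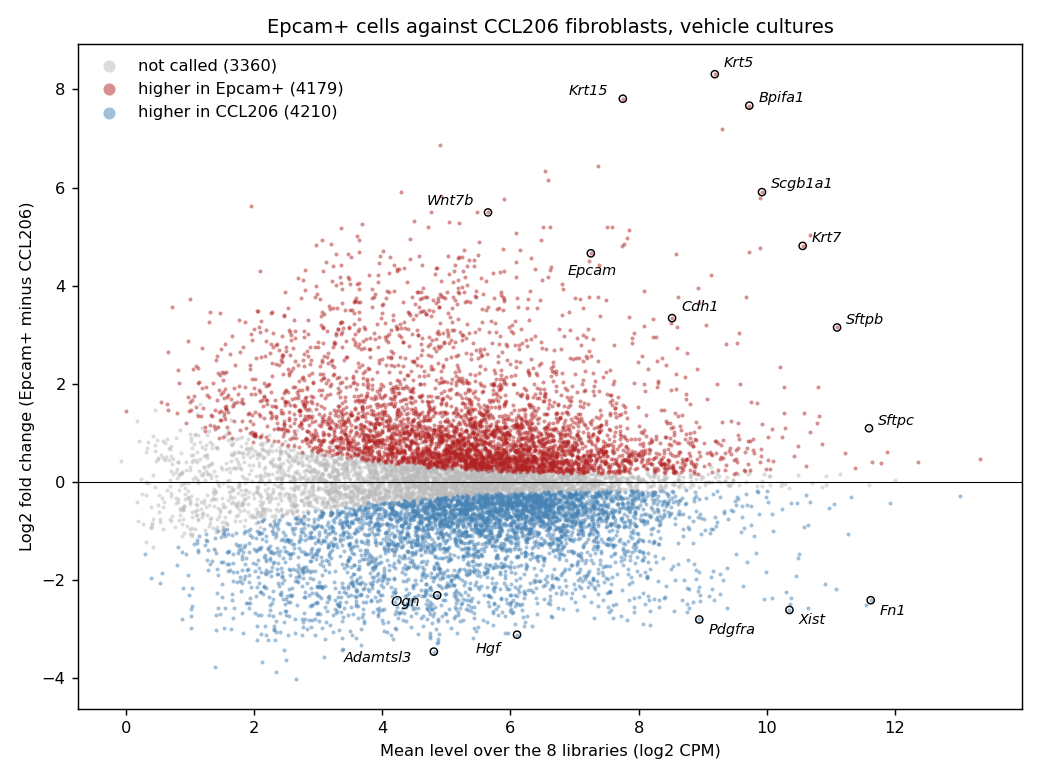
Log2 fold change (Epcam+ minus CCL206) against the mean level (log2 CPM over the 8 libraries) for the 11749 genes tested, with called genes in colour and uncalled genes in grey. The upper arm reaches 8.31 (Krt5), while the lower arm ends at -4.002.

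Airway and basal cell genes had the largest differences. Among genes with at least 50 CPM in the higher fraction and the same direction in all 4 cultures, the 10 largest Epcam+ differences were those of Krt5, Krt15, Bpifa1, Ltf, Coro2a, Aqp3, Gabrp, St8sia6, Scgb1a1 and Foxq1, with log2 fold changes from 5.83 to 8.31. Krt5, the keratin of basal cells, stood at 1315, 1512, 1308 and 526 CPM in Epcam+ libraries and at 3.70, 2.81, 3.79 and 3.40 CPM in CCL206 libraries (log2 fold change 8.31 ± 0.20, adjusted p = 4.7e-10). Its Epcam+ level was lowest in mouse 4, and the same held for Krt15, a second basal keratin, at 517, 608, 375 and 221 CPM against 2.28, 1.68, 2.84 and 0.499 CPM (log2 fold change 7.81). Aqp3, a water and glycerol channel of basal cells, stood at 381, 423, 367 and 135 CPM against 4.35, 4.07, 4.55 and 1.70 CPM (6.45). Trp63, the transcription factor that maintains basal cells, reached 67.2, 83.4, 53.7 and 14.1 CPM against 6.09, 4.35, 3.13 and 3.30 CPM (log2 fold change 3.56 ± 0.28, adjusted p = 6.5e-07). In all 4 of these genes the mouse 4 Epcam+ library held less than the other three, without overlap with the fibroblast libraries.

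Secretory and ciliated genes followed the same direction. Bpifa1, a secreted airway lipid-binding defence protein, stood at 1606, 1932, 1901 and 1318 CPM in Epcam+ libraries and 10.3, 5.33, 13.5 and 4.50 CPM in CCL206 libraries (log2 fold change 7.67 ± 0.21, adjusted p = 9.1e-10). Ltf, the gene of the iron-binding protein lactoferrin, stood at 1020.5, 1347, 1615 and 1061 CPM against 9.57, 5.33, 13.2 and 6.09 CPM (7.20). Scgb1a1, the club cell secretoglobin, stood at 2056, 1951, 1963 and 1688 CPM against 32.7, 32.6, 40.6 and 23.2 CPM (5.91). The groups did not overlap for any of these secretory genes. Foxj1, the master regulator of motile cilia, stood at 202, 166, 199 and 198 CPM against 5.11, 4.63, 7.58 and 3.70 CPM (log2 fold change 5.19 ± 0.15, adjusted p = 1.2e-09). All 8 tested genes of the 13 club and secretory genes listed were higher in Epcam+ cells (median log2 fold change 4.72), as were all 5 tested of 14 ciliated genes (median 3.66) and 7 of the 8 tested of 13 basal genes (median 4.76). The basal gene that went the other way was Dst, a cytoskeletal linker that many cells use, at 218, 229, 206 and 162 CPM against 381, 392, 356 and 438 CPM (-0.94).

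AT2 genes were higher in the Epcam+ fraction by smaller factors, and Sftpc was not called. Sftpc, which encodes surfactant protein C and is the classical AT2 marker, stood at 667, 4910.2, 5062 and 6888 CPM in Epcam+ libraries and at 2708, 1694, 1858 and 1002 CPM in CCL206 libraries. The Epcam+ library of mouse 1 was the lowest of all 8, below every fibroblast library, while the other 3 Epcam+ libraries lay above all of them. The log2 fold change was 1.10 ± 0.60 (adjusted p = 0.12), and without mouse 1 it was 1.91 with an adjusted p of 1.6e-05. The fit that ignored the pairing also called it, at 1.27 (adjusted p = 0.038). In the same mouse 1 library the mitochondrial transcripts mt-Co2 and mt-Atp6 were also low, at 22.5, 243, 86.0 and 177 CPM and 23.2, 233, 84.1 and 165 CPM over the 4 mice, whereas mt-Co1 was level at 11697, 11867, 11337 and 12848 CPM.

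The other surfactant genes did not share that drop. Sftpb, surfactant protein B, stood at 4209.6, 3752, 3610.0 and 4100.5 CPM against 745, 388, 477 and 269 CPM (log2 fold change 3.15 ± 0.19, adjusted p = 8.3e-08). Sftpa1, a surfactant collectin gene, stood at 1239.5, 1149, 1368 and 1411 CPM against 309, 165, 196 and 102 CPM (2.84). Sftpd, the other collectin gene, stood at 1219.9, 1229.8, 1359 and 1604 CPM against 258, 164, 169 and 97.8 CPM (3.04). Within the fibroblast fraction each of these genes, Sftpc included, was highest in mouse 1 and lowest in mouse 4. Slc34a2, the phosphate transporter of AT2 cells, stood at 1042, 867, 882 and 1002 CPM against 408, 212, 249 and 144 CPM (1.99). Lamp3, a lamellar body membrane protein, stood at 335, 221, 276 and 303 CPM against 162, 90.4, 101 and 51.3 CPM (1.57). Lrrk2, a kinase that AT2 cells also carry, was not called, at 136, 132, 113 and 128 CPM against 164, 137, 127 and 132 CPM (-0.14, adjusted p = 0.11). Of the 10 AT2 signature genes, 8 were higher in Epcam+ cells (median log2 fold change 2.23). All 16 genes of AT2 lipid handling and secretion were higher there too (median 1.86), among them Cebpa (2.69), Muc1 (2.91), Cxcl15 (2.34) and the surfactant lipid transporter Abca3 (1.21).

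**Figure D2:**
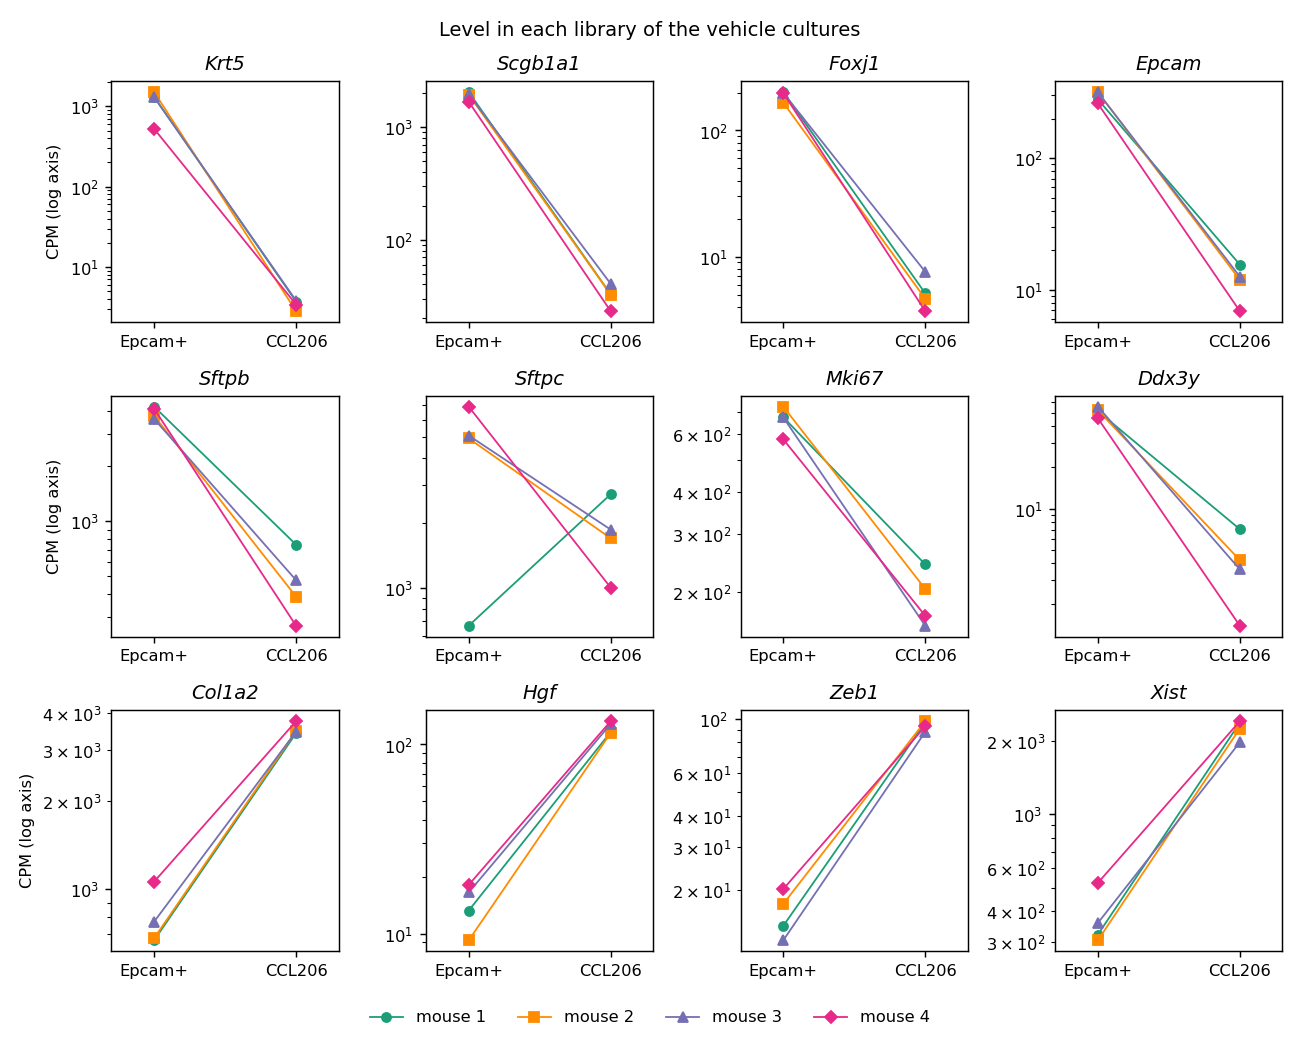
Level of 12 genes in each library (CPM, log axis), Epcam+ on the left and CCL206 on the right of each panel, with a line joining the 2 libraries of 1 mouse. The lines of Sftpc cross, because mouse 1 runs from 667 CPM up to 2708 CPM, while for the other genes all 4 lines run the same way.

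AT1 and transitional genes were mixed in size. Of 16 tested among 19 AT1 genes, 14 were higher in Epcam+ cells and 2 in CCL206 cells (median log2 fold change 1.94). Aqp5, a water channel of AT1 cells and of secretory epithelium, stood at 918, 977, 962 and 805 CPM against 96.5, 48.0, 66.3 and 37.5 CPM (3.95). Hopx, a homeobox gene of AT1 cells that is also in the AT2 signature used here, had a log2 fold change of 3.40 ± 0.18. Those that were higher in the fibroblasts were Cav1, the caveolin of caveolae, at 111, 136, 105 and 93.1 CPM against 283, 297, 256 and 269 CPM (-1.32), and Vegfa, the angiogenic growth factor (-1.13). Transitional genes mark cells on the way from AT2 to AT1. All 19 were tested, 14 were higher in Epcam+ cells and 3 in CCL206 cells (median 2.78). Krt7, Krt19 and Cldn4 had the largest differences in this list at 4.81, 4.76 and 4.33, and the genes higher in CCL206 cells were Cdkn1a (-0.84), Ctsd (-0.96) and Ndrg1 (-0.59).

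All 23 tested of 26 junction genes were higher in Epcam+ cells (median log2 fold change 3.11). Dsg2, a desmosomal cadherin, had the largest difference and stood at 82.8, 88.0, 77.1 and 66.8 CPM against 5.87, 2.39, 3.79 and 1.70 CPM (4.52 ± 0.22, adjusted p = 1.8e-08). Dsp, the desmosomal plaque protein desmoplakin, stood at 339, 375, 324 and 233 CPM against 24.9, 15.0, 11.5 and 9.19 CPM (4.43). Cldn4, a sealing claudin, stood at 213, 211, 157 and 167 CPM against 16.1, 9.26, 7.58 and 5.39 CPM (4.33). E-cadherin, encoded by Cdh1, stood at 715, 682, 660.0 and 604 CPM against 119, 61.0, 65.4 and 36.8 CPM (3.34). In each of these genes the fibroblast library of mouse 1 held the most and that of mouse 4 the least. Every one of the 12 tested genes of epithelial splicing, trafficking and polarity was higher in Epcam+ cells as well (median 3.38), led by the vesicle GTPase Rab25 (4.12), the splicing regulator Esrp1 (4.12) and the membrane protease St14 (3.94).

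The upstream bases of a few such genes are shown because their promoters hold CACCTG, the E-box that the repressors ZEB and SNAI are known to bind and whose genes were higher in the fibroblasts. Each run is the 250 bases before the start of transcription from RefSeq (GRCm38.p6), 5′ to 3′ on the gene's strand, with CACCTG or its reverse complement CAGGTG in capitals.
Epcam (chr17:87635729-87635978, + strand): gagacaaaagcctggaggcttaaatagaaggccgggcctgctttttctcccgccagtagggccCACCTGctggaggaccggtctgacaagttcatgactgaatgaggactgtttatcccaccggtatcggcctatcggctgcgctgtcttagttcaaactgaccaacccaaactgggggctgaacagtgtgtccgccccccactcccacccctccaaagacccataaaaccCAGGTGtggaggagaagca
Crb3 (chr17:57061951-57062200, + strand): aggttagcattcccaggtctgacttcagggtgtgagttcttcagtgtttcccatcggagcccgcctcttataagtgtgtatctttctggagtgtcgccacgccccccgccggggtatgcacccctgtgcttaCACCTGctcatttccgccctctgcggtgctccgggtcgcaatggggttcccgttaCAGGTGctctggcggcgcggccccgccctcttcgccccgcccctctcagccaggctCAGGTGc
Krt5 (chr15:101712906-101713155, - strand): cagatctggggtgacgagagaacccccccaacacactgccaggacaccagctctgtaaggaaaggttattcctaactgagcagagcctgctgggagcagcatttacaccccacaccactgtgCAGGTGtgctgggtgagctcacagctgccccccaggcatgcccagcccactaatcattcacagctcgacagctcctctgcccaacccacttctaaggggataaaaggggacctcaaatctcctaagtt
Epcam held 2 matches, starting 187 and 19 bases before the transcription start, Crb3, an apical polarity gene (3.46), held 3, at 118, 63 and 7 bases, and Krt5 held 1, at 128 bases. Windows were found for 9145 of the 11749 genes, 11733 windows in all since a gene can have several starts. One or more matches lay in 14.9% of all windows, in 22.2% of the 1813 windows of genes more than 2-fold higher in Epcam+ cells and in 14.5% of the 1845 windows of genes more than 2-fold higher in CCL206 cells. The 22 windows of junction genes came from 15 genes, and 9 of these windows held a match (40.9%). The AACCTG core of the GRHL motif, which differs from the E-box in its first letter and cannot overlap it, was in 11.8% of all windows, 14.3% of Epcam+ and 12.4% of CCL206 windows. For the TEAD site GGAATG these shares were 10.6%, 11.1% and 12.0%, for TATAAA 6.33%, 7.94% and 7.64%, and for the SP1 site GGGCGG 59.0%, 55.3% and 55.2%. In the 22 junction windows the shares were 27.3% for AACCTG, 9.09% for GGAATG, 13.6% for TATAAA and 68.2% for GGGCGG, so every motif but GGAATG was above its share of all windows there. All were searched on both strands, and a match describes the letters only.

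Transcription factors split by lineage. Of 19 tested epithelial factors, 18 were higher in Epcam+ cells (median log2 fold change 2.94). Elf3, Foxa1 and Ehf, factors of epithelial identity, had the largest differences at 4.63, 4.49 and 4.25. Nkx2-1, the lineage factor of lung epithelium, stood at 152, 149, 162 and 188 CPM against 41.8, 22.9, 23.3 and 14.9 CPM (2.71). Sox9, which marks distal lung progenitors and is also a gene of chondrogenic mesenchyme, went the other way at 22.7, 23.1, 24.6 and 27.7 CPM against 120.1, 126, 104 and 113 CPM (log2 fold change -2.25 ± 0.11, adjusted p = 1.7e-08). All 18 tested of 25 mesenchymal factors were higher in CCL206 cells (median -2.50). Zeb1, a repressor of epithelial genes, stood at 14.2, 17.5, 12.4 and 20.1 CPM in Epcam+ libraries and 96.4, 97.7, 88.3 and 93.1 CPM in CCL206 libraries (-2.59), and its relative Zeb2 differed by -2.66. The largest differences in the list were those of Mef2c (-3.18), Tbx5 (-2.82) and Ebf1 (-2.68), and the smallest was that of Tead1 (-0.32). Tcf21, Gli1 and the other 5 were not in the table.

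**Figure D3:**
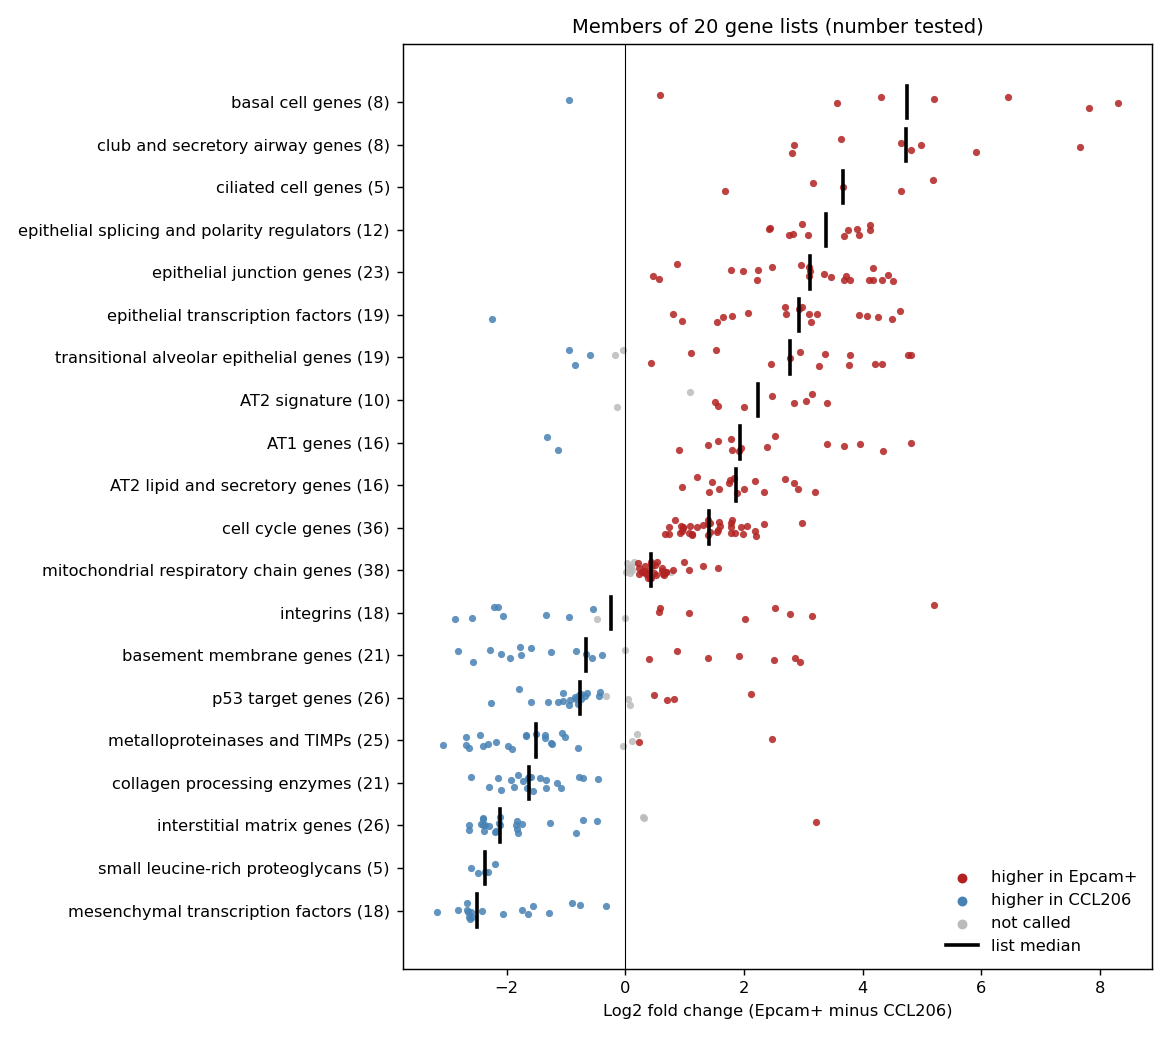
Log2 fold change (Epcam+ minus CCL206) of every tested member of 20 gene lists, 1 point a gene, coloured by call, with a bar at each list's median. Airway and basal lists have medians of 3.66 to 4.76, AT2 lists have 1.86 and 2.23, and the interstitial matrix, proteoglycan, collagen processing and mesenchymal factor lists lie between -2.50 and -1.62.

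The fibroblast end held the matrix. Among genes with at least 50 CPM in the higher fraction, the 10 largest CCL206 differences were those of Adamtsl3, Fam171b, Pde10a, Lilrb4b, Pcdh17, Hgf, Lilrb4a, Zfhx4, Tnxb and Fer1l6, from -3.45 to -3.06. Adamtsl3, a secreted matrix protein, stood at 4.46, 2.97, 4.96 and 6.51 CPM in Epcam+ libraries and 52.8, 46.6, 52.0 and 53.1 CPM in CCL206 libraries (-3.45 ± 0.16, adjusted p = 1.8e-08). Tnxb, the matrix glycoprotein tenascin-X, stood at 13.1, 7.58, 15.1 and 15.3 CPM against 114, 105, 107 and 104 CPM (-3.07). Lilrb4a and Lilrb4b are near-identical receptor genes between which reads may be split, so their values (-3.10 and -3.19) are uncertain. Of 26 tested interstitial matrix genes, 23 were higher in CCL206 cells and 1 in Epcam+ cells (median -2.11), and without mouse 1 there were 2 in Epcam+ cells. Fn1, fibronectin, differed by -2.41, Col6a3, a chain of beaded filament collagen, by -2.39, and Thbs2, a matricellular thrombospondin, by -2.63. The exception was Fbln1, the elastic fibre and basement membrane protein fibulin 1, at 33.5, 36.6, 31.2 and 8.77 CPM in Epcam+ libraries against 2.39, 3.65, 2.46 and 2.60 CPM (3.21 ± 0.30, adjusted p = 3e-06), with mouse 4 again the lowest of the Epcam+ libraries. In the 10-gene fibroblast signature, of which Fbln1 is a member, 8 of the 9 tested were higher in CCL206 cells (median -2.19).

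All 5 tested of 12 small leucine-rich proteoglycans, which bind collagen fibrils, were higher in CCL206 cells (median -2.37). Ogn, the gene of the proteoglycan that other cultures of the series received, stood at 7.73, 6.59, 9.71 and 16.7 CPM in Epcam+ libraries and at 47.5, 40.7, 51.3 and 51.5 CPM in CCL206 libraries (log2 fold change -2.31 ± 0.18, adjusted p = 6.4e-07). Its highest Epcam+ value came from mouse 4 and remained below every fibroblast value. Bgn, biglycan, stood at 355, 401, 366 and 489 CPM against 2093, 2208, 2200.0 and 2398 CPM (-2.48), and Prelp and Dcn differed by -2.60 and -2.37. All 21 tested collagen processing enzymes were higher in CCL206 cells too (median -1.62). Loxl3, a lysyl oxidase that crosslinks collagen, stood at 21.3, 14.2, 19.0 and 27.7 CPM against 128, 127, 127 and 113 CPM (-2.60), Adamts14, a procollagen N-proteinase, differed by -2.14, and Serpinh1, the collagen chaperone, by -1.81.

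Basement membrane genes were divided between the fractions, with 7 of 21 tested higher in Epcam+ cells and 13 in CCL206 cells (median -0.66). Lamb3, a chain of the laminin that anchors epithelium, stood at 169, 178, 154 and 122 CPM against 33.5, 19.9, 18.3 and 15.8 CPM (2.86), and Npnt, nephronectin, an integrin ligand of epithelial basement membrane, differed by 2.50. Lama2, a laminin chain of mesenchyme, stood at 12.5, 6.59, 13.4 and 13.9 CPM against 82.0, 83.9, 74.4 and 94.5 CPM (-2.81 ± 0.16, adjusted p = 5.1e-08), and Nid1, the linker nidogen, at 159.7, 147, 202 and 278 CPM against 1035, 947, 1228 and 1347 CPM (-2.56). Lama5 was near equal at 666, 652, 613 and 538 CPM against 659.9, 622, 576 and 609 CPM, and its adjusted p was 0.98. Of 18 tested integrins, 8 were higher in each fraction (44.4% each, against 35.6% and 35.8% of all genes, median -0.24). Itgb4, the hemidesmosome subunit, stood at 398, 461, 361 and 198 CPM against 11.2, 9.26, 9.29 and 7.39 CPM (5.20 ± 0.13, adjusted p = 4.7e-10), Itga3, a laminin receptor subunit, differed by 3.15, and Itgb6, which activates latent TGF-beta, by 2.78. On the fibroblast side stood Itga8, at -2.86, and Itga5, the fibronectin receptor subunit, at 60.4, 66.6, 58.7 and 82.9 CPM against 316, 328, 294 and 298 CPM (-2.22).

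Matrix proteases lay mainly with the fibroblasts. Of 25 tested metalloproteinases and inhibitors, 20 were higher in CCL206 cells and 2 in Epcam+ cells (median -1.51). Mmp2, a gelatinase, stood at 94.4, 75.2, 103 and 142 CPM against 525, 508, 546 and 569 CPM (-2.40 ± 0.11, adjusted p = 1.2e-08), and the inhibitor Timp2 differed by -1.90. The low transcripts Mmp10 and Mmp13 differed by -3.07 and -2.68. The genes higher in Epcam+ cells were the membrane-bound Mmp15, at 130.2, 92.3, 103 and 90.8 CPM against 29.6, 17.3, 18.4 and 11.7 CPM (2.48), and Adam9 (0.23), whose call was lost without mouse 3 (0.21, adjusted p = 0.054).

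Keratins and vimentin separated the cytoskeletons. Of 14 tested intermediate filament genes, 9 were higher in Epcam+ cells and 5 in CCL206 cells (median 3.01). Krt7, a simple epithelial keratin, stood at 2705, 3121, 2906 and 2926 CPM against 159, 92.3, 118 and 64.7 CPM (4.81 ± 0.20, adjusted p = 7.9e-09). Vim, the filament of mesenchymal cells, stood at 373, 445, 375 and 552 CPM against 2285, 2621, 1995 and 1999.9 CPM (-2.36 ± 0.12, adjusted p = 2.2e-08). Contractile genes were less uniform, with 5 of 15 tested higher in Epcam+ cells and 10 in CCL206 cells (median -0.66). Acta2, smooth muscle actin of myofibroblasts, stood at 6.12, 7.25, 9.30 and 10.5 CPM against 23.9, 25.7, 17.9 and 24.3 CPM (-1.50), and Des, desmin, differed by -2.82, both at low levels. Tpm1 and Cnn2, actin-binding proteins of many cell types, were slightly higher in Epcam+ cells, at 0.41 and 0.41. All 4 tested of 8 pericyte genes were higher in CCL206 cells (median -2.35), among them Cspg4 (-2.95), Pdgfrb (-2.71) and Notch3 (-1.98). Lipofibroblast genes, which serve neutral lipid storage, were split into 3 higher in Epcam+ cells and 5 higher in CCL206 cells among 9 tested (median -0.69). Pparg, the adipogenic nuclear receptor, stood at 14.8, 25.1, 16.9 and 15.6 CPM against 2.94, 0.421, 1.14 and 1.50 CPM (3.55), whereas Pdgfra, the receptor that marks alveolar fibroblasts, stood at 98.7, 98.6, 134 and 175 CPM against 792, 739, 944 and 969 CPM (-2.80).

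All 36 cell cycle genes were higher in Epcam+ cells (median log2 fold change 1.41). Cdc20, which drives mitotic exit, had the largest difference and stood at 220.0, 197, 205 and 190.2 CPM against 38.4, 22.0, 25.5 and 19.6 CPM (2.97 ± 0.12, adjusted p = 7.5e-09). Mki67, the proliferation marker, stood at 673, 725, 673 and 578 CPM against 242, 204, 158 and 169.7 CPM (1.79). Top2a, the topoisomerase of dividing cells, stood at 545, 617, 554 and 468 CPM against 311, 282, 229.7 and 224 CPM (1.07). The CCL206 fraction, whose cells had been treated with mitomycin C before culture, thus also held readable levels of these transcripts, and from which cells of the fraction they came was not tested. Of 26 tested p53 target genes, 19 were higher in CCL206 cells and 4 in Epcam+ cells (median -0.77). Mdm2, the ubiquitin ligase that restrains p53, stood at 201, 223, 198 and 234 CPM against 815, 817, 496 and 518 CPM (-1.60 ± 0.13, adjusted p = 1e-06). Cdkn1a, the cell cycle inhibitor p21, stood at 255, 274, 248 and 312 CPM against 496, 540.2, 459 and 455 CPM (-0.84). The fibroblast libraries of mice 1 and 2 held more Mdm2 than those of mice 3 and 4. Gdf15, a stress-induced cytokine, Ddb2, Tigar and Gtse1 were the targets higher in Epcam+ cells, at 2.12, 0.70, 0.82 and 0.48, and the call of Ddb2 was lost without mouse 3 (0.68, adjusted p = 0.064) or mouse 4 (0.53, adjusted p = 0.066).

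Lipid and energy genes differed by smaller amounts. Of 20 tested fatty acid genes, 16 were higher in Epcam+ cells and 2 in CCL206 cells (median 0.68). Scd1, a stearoyl-CoA desaturase, stood at 3047, 2569, 2641 and 2952 CPM against 1180.1, 682, 773 and 452 CPM (1.94), and Acsl5, an acyl-CoA synthetase, differed by 2.01. Dgat2, which makes triglyceride, was called higher in CCL206 cells (-0.96) from under 8 CPM in each library, and lost its call without the pairing (-0.94), without mouse 1 (-0.64) and without mouse 3 (-0.93). Sterol synthesis genes were split, 10 and 5 of 22 (median 0.05), with Cyp51, a lanosterol demethylase, at 223, 219, 282 and 224 CPM against 56.7, 41.0, 55.4 and 44.7 CPM (2.26). Of 19 tested glycolysis genes, 7 were higher in each fraction (36.8% each, near the shares of all genes; median -0.08). Ldha, lactate dehydrogenase A, stood at 2222, 2409.8, 2273 and 1982 CPM against 842, 841, 865 and 805 CPM (1.40), and Eno2, an enolase isoform, at 45.1, 41.9, 57.9 and 79.5 CPM against 275, 282, 296 and 309.6 CPM (-2.41). Of 38 respiratory chain genes, 30 were higher in Epcam+ cells and none in CCL206 cells (median 0.43). The count in Epcam+ cells was 22 in the fit of all 32 libraries. Ndufa2, a complex I subunit gene, had a difference of 1.08.

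Redox and transport genes were mostly epithelial. Of 27 tested glutathione and peroxide defence genes, 17 were higher in Epcam+ cells and 6 in CCL206 cells (median 0.61), and the latter count was 3 in the fit of all 32 libraries. Gpx2, an epithelial glutathione peroxidase, stood at 341, 309.9, 289 and 209 CPM against 15.0, 15.7, 12.9 and 7.39 CPM (4.51 ± 0.10, adjusted p = 4.7e-10). Gclc, the rate-limiting enzyme of glutathione synthesis, stood at 1317, 1153, 1034 and 1369 CPM against 428, 309, 279 and 227 CPM (2.00). Sod3, the extracellular superoxide dismutase, and Hmox1, heme oxygenase, were higher in CCL206 cells, at -2.42 and -0.86. Of 14 tested ion and water transport genes, 12 were higher in Epcam+ cells and 2 in CCL206 cells (median 2.36), with the bicarbonate transporter Slc4a4 at 3.58 and, on the fibroblast side, Aqp1 and Clcn2 at -2.11 and -0.93.

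Immune genes went both ways. Of 15 tested antigen presentation genes, 7 were higher in Epcam+ cells and 8 in CCL206 cells (median -0.76). The class II genes H2-Aa and H2-Ab1 differed by 1.53 and 1.46, while the class I partner B2m stood at 239, 303, 286 and 408 CPM against 923, 1051, 1063 and 1049 CPM (-1.75) and the class I activator Nlrc5 differed by -2.73. Of 12 tested chemokine genes, 4 were higher in Epcam+ cells and 7 in CCL206 cells (median -1.27). Ccl20, a ligand of the receptor Ccr6, stood at 24.3, 12.2, 32.6 and 23.8 CPM against 1.74, 2.53, 1.14 and 0.799 CPM (3.93 ± 0.38, adjusted p = 3.6e-06), and Ccl7, a ligand of Ccr2, at 14.0, 13.2, 8.89 and 20.9 CPM against 77.8, 89.5, 68.7 and 65.9 CPM (-2.43). Complement genes were mainly fibroblastic, 8 of 10 tested against 1 (median -2.34). C4b stood at 24.5, 24.4, 24.4 and 31.1 CPM against 169, 171, 173 and 187 CPM (-2.75 ± 0.09, adjusted p = 2.1e-09), and C3, the central component, at 655, 722, 718 and 838 CPM against 3005, 2926, 3124 and 3347 CPM (-2.08). The complement gene higher in Epcam+ cells was Cd55, which shields cells from complement (2.90).

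Growth factor genes and the genes of their receptors lay in opposite fractions in some pathways and in the same fraction in others. In the FGF family, 3 of 4 tested ligands were higher in CCL206 cells and 1 in Epcam+ cells, while 2 of 3 tested receptors were higher in Epcam+ cells. Fgf7, a mitogen for epithelium, stood at 10.9, 13.5, 13.2 and 28.3 CPM in Epcam+ libraries and 82.5, 87.1, 78.9 and 85.8 CPM in CCL206 libraries (-2.45 ± 0.19, adjusted p = 6.4e-07). Fgf10, the budding signal of lung mesenchyme, stood at 4.64, 9.56, 6.41 and 7.92 CPM against 50.7, 42.0, 52.1 and 46.5 CPM (-2.87 ± 0.20, adjusted p = 3.3e-07). Fgf2, basic fibroblast growth factor, stood at 8.50, 7.58, 5.17 and 3.68 CPM against 55.4, 54.2, 46.1 and 48.4 CPM (-3.00). Every fibroblast library exceeded every Epcam+ library for these ligands. Fgfr2, whose epithelial isoform receives Fgf7 and Fgf10, stood at 213, 186, 187 and 208 CPM against 66.2, 46.3, 50.6 and 43.9 CPM (1.95 ± 0.10, adjusted p = 2.2e-08). Fgfr3 stood at 87.6, 82.4, 95.0 and 61.4 CPM against 8.59, 6.03, 5.50 and 3.60 CPM (3.80). Fgfr1, the mesenchymal receptor, stood at 49.7, 60.0, 53.5 and 71.6 CPM against 231, 214, 228 and 234 CPM (-1.98). Gene counts do not separate the receptor isoforms. Fgf1 was the ligand gene higher in Epcam+ cells (2.31).

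Hgf, hepatocyte growth factor, stood at 13.3, 9.23, 16.5 and 18.1 CPM in Epcam+ libraries and 116, 115, 128 and 133 CPM in CCL206 libraries (-3.11 ± 0.12, adjusted p = 6.4e-09). Its receptor gene Met stood at 227, 187, 210.1 and 163 CPM against 87.6, 61.2, 81.8 and 68.6 CPM (1.39 ± 0.08, adjusted p = 6.2e-08). The protease St14 and the inhibitors Spint1 and Spint2, which control the cleavage of pro-HGF, were all higher in Epcam+ cells, at 3.94, 3.76 and 3.90. In the EGF family, the ligands Areg and Tgfa were higher in Epcam+ cells (2.46 and 1.53), whereas Ereg, epiregulin, was higher in CCL206 cells at 68.8, 81.1, 40.9 and 33.7 CPM against 253, 248, 69.4 and 65.8 CPM (-1.36). The Ereg values of the 2 fractions overlapped between mice, since mice 1 and 2 were high in both. Egfr, the receptor, was higher in CCL206 cells at 75.2, 49.8, 69.0 and 63.7 CPM against 240.5, 242, 224 and 223 CPM (-1.84), and Erbb3, a receptor for neuregulins, was higher in Epcam+ cells at 122, 127, 108 and 95.9 CPM against 18.6, 12.6, 13.3 and 6.99 CPM (3.17). Both PDGF receptors were fibroblastic, Pdgfra at -2.80 and Pdgfrb at -2.71. Of the PDGF ligands, Pdgfb was higher in Epcam+ cells (1.37), while Pdgfc (-1.78) and Pdgfa (-0.45) were higher in CCL206 cells. All 4 tested VEGF ligands were higher in CCL206 cells, from -2.47 for Vegfc to -1.01 for Vegfb, and so were both tested receptors, the neuropilins Nrp1 and Nrp2.

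WNT ligands were found in both fractions. Wnt7b, a ligand of airway and AT1 epithelium, stood at 94.4, 105, 109 and 85.5 CPM in Epcam+ libraries and 3.26, 0.842, 2.84 and 1.50 CPM in CCL206 libraries (5.49 ± 0.22, adjusted p = 6.4e-09). Wnt4 stood at 43.1, 47.5, 41.1 and 23.2 CPM against 0.653, 0.281, 1.04 and 0.4 CPM (5.92 ± 0.27, adjusted p = 1.3e-08). Wnt5a, which acts mainly outside the beta-catenin pathway, stood at 23.3, 28.0, 20.9 and 19.2 CPM against 79.6, 79.7, 70.0 and 78.6 CPM (-1.76 ± 0.11, adjusted p = 1.3e-07). Of 9 tested ligands and R-spondins, 3 were higher in Epcam+ cells, the third being Wnt7a (3.68), and 5 in CCL206 cells, among them Wnt6, Wnt10a and the R-spondins Rspo2 (-2.51) and Rspo3 (-2.67), which enhance WNT reception. Of 15 tested receptors, 6 were higher in Epcam+ cells and 5 in CCL206 cells. Ror2, a receptor of Wnt5a, differed by -2.81 and Fzd1 by -1.49, whereas Fzd6, Lgr6 and Fzd4 differed by 1.81, 1.76 and 1.60.

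TGF-beta genes differed by role. Of 7 tested ligands, 3 were higher in each fraction (42.9% each, against 35.6% and 35.8% of all genes). Tgfb2 was higher in Epcam+ cells at 27.2, 27.4, 28.7 and 34.8 CPM against 9.46, 7.44, 8.25 and 8.09 CPM (1.82), and the activin subunit Inhbb was higher in CCL206 cells (-1.63). Tgfbr3, the coreceptor betaglycan, stood at 46.6, 41.2, 66.5 and 74.1 CPM against 365, 323, 380.3 and 400.3 CPM (-2.72 ± 0.11, adjusted p = 6.2e-09), and the latent TGF-beta binding proteins Ltbp1 and Ltbp2 differed by -2.43 and -2.64. Of 6 tested receptors, 4 were higher in Epcam+ cells, among them Tgfbr1 (1.32), which transmits the signal with Tgfbr2, and Tgfbr3 was the 1 higher in CCL206 cells. Of the 11 regulators and effectors tested, 10 were higher in CCL206 cells. BMP ligands lay in Epcam+ cells, where Bmp5, Bmp3 and Bmp4 differed by 3.02, 3.00 and 2.17. Bmp1, which was listed with them but is a procollagen proteinase, was higher in CCL206 cells (-0.71). The secreted BMP antagonist Grem1 stood at 315, 334, 565 and 723 CPM against 2126, 2388, 3228 and 3133 CPM (-2.56 ± 0.11, adjusted p = 1.1e-08). All 4 tested BMP receptors were higher in CCL206 cells, the largest difference being that of Acvrl1 (-2.16).

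**Figure D4:**
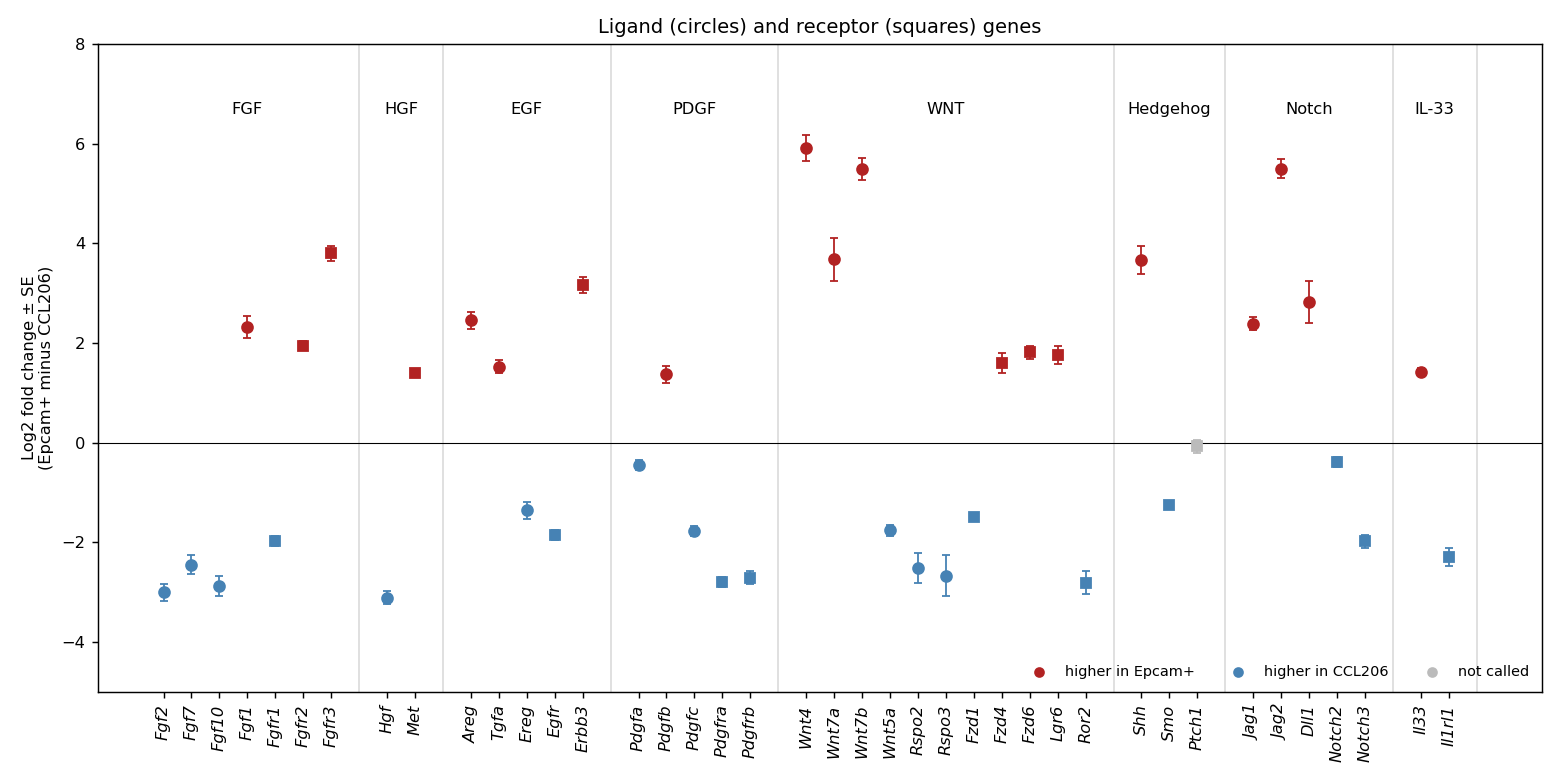
Log2 fold change (Epcam+ minus CCL206, bars ± SE) of ligand and receptor genes in 8 pathways, ligands as circles and receptors as squares. Fgf7, Fgf10 and Hgf lie below 0 with Fgfr2 and Met above 0, and Shh and Jag2 lie above 0 with Smo and Notch3 below 0.

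Hedgehog and Notch ligands were epithelial. Shh, sonic hedgehog, stood at 21.2, 24.7, 20.7 and 24.6 CPM in Epcam+ libraries and 2.39, 0.842, 2.18 and 1.60 CPM in CCL206 libraries (3.66 ± 0.29, adjusted p = 6.8e-07). Its signal transducer Smo was higher in CCL206 cells at 81.5, 97.3, 78.7 and 78.1 CPM against 196, 199, 200.1 and 199.7 CPM (-1.25), and all 6 other tested pathway genes were higher there as well, with the effector Gli2 at -2.63 and the coreceptor Gas1 at -2.21. The receptor and target gene Ptch1 was not called, at 44.9, 39.6, 38.6 and 27.2 CPM against 41.8, 46.2, 33.2 and 37.6 CPM (-0.07, adjusted p = 0.64). All 3 tested Notch ligands were higher in Epcam+ cells. Jag2 stood at 102, 114, 93.0 and 41.3 CPM against 3.15, 1.54, 1.71 and 1.10 CPM (5.50 ± 0.18, adjusted p = 2.7e-09), and Dll1 and Jag1 differed by 2.82 and 2.39. Of 3 tested Notch receptors, 2 were higher in CCL206 cells and 1 was slightly higher in Epcam+ cells (0.28), a call lost with plain library size scaling. Notch3, the receptor of mural cells, stood at 40.1, 28.7, 41.3 and 38.5 CPM against 146, 172, 134 and 145 CPM (-1.98), and Notch2 was slightly higher in CCL206 cells (-0.39).

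Cytokine receptors were mainly fibroblastic. Il33, an alarmin of AT2 and other barrier cells, stood at 177, 169, 167 and 138 CPM in Epcam+ libraries and 73.3, 65.1, 52.98 and 53.8 CPM in CCL206 libraries (1.41 ± 0.09, adjusted p = 9.5e-08). Its receptor gene Il1rl1 stood at 5.82, 8.24, 11.6 and 7.36 CPM against 38.8, 39.7, 38.7 and 38.9 CPM (-2.30 ± 0.18, adjusted p = 7.9e-07). Of 8 tested receptors of the IL-1 and IL-6 families, 7 were higher in CCL206 cells and none in Epcam+ cells, with 1 there in the fit of all 32 libraries. Osmr and Lifr, which bind oncostatin M and LIF, differed by -1.98 and -1.92, and the shared subunit Il6st by -1.09. Cxcl12, the ligand of Cxcr4, stood at 99.7, 93.0, 137 and 215 CPM against 579.7, 694, 766 and 872 CPM (-2.47), and Csf1, the macrophage growth factor, at 81.1, 103, 76.9 and 126 CPM against 495, 486, 417 and 488 CPM (-2.32). Kitl, stem cell factor, and Axl and Mertk, receptors of Gas6 and Pros1, were also higher in CCL206 cells, at -1.52, -1.89 and -2.22. The IGF ligands were not in the table, and all 3 tested IGF and insulin receptors were higher in CCL206 cells.

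Guidance genes were spread over both fractions. Of 10 tested semaphorins, 5 were higher in Epcam+ cells and 3 in CCL206 cells. Sema3a, a repellent that acts through neuropilins, stood at 23.4, 23.7, 30.6 and 26.9 CPM against 178, 179, 162 and 167 CPM (-2.72 ± 0.11, adjusted p = 6.2e-09), and the neuropilin Nrp2 differed by -1.93. On the epithelial side, Sema4a and Sema3e differed by 2.70 and 4.35. Of 8 tested semaphorin receptors, 6 were higher in CCL206 cells. Among the plexins, Plxnb1, a receptor of Sema4d, was higher in Epcam+ cells (2.24). Of 8 tested Eph receptors, 4 were higher in Epcam+ cells and 2 in CCL206 cells. Epha1 stood at 49.9, 41.9, 44.2 and 31.4 CPM against 5.87, 3.51, 2.65 and 1.90 CPM (3.63), whereas Ephb4 and the ephrin Efnb2, which bind each other, were both higher in CCL206 cells at -1.26 and -1.26.

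How much of each fraction's marker RNA was read in the other one was not the same for all markers. In CCL206 libraries, Epcam stood at 5.56%, 3.75%, 3.98% and 2.65% of its Epcam+ level in mice 1 to 4, and Ddx3y at 13.8%, 8.08%, 6.50% and 3.07%. The 7 basal genes that were higher in Epcam+ cells had a median of 2.82%, 2.01%, 2.57% and 3.74%. The 8 club and secretory genes had 5.38%, 3.03%, 3.73% and 3.17%. Junction genes, 23 in number, stood higher at 16.6%, 10.3%, 11.5% and 6.11%, and the 8 called AT2 signature genes at 25.8%, 16.4%, 17.6% and 9.12%. Mouse 1 was the highest and mouse 4 the lowest for Epcam, Ddx3y, AT2, AT1 and junction genes, but not for basal genes. In the opposite direction, Xist in Epcam+ libraries stood at 13.6%, 13.6%, 18.2% and 21.8% of its CCL206 level. The 8 fibroblast signature genes higher in CCL206 cells had a median of 18.8%, 18.9%, 18.9% and 26.7%, the 18 mesenchymal factors 19.3%, 22.3%, 18.8% and 21.5%, and the 8 complement genes 16.1%, 17.2%, 18.4% and 24.7%. Interstitial matrix genes reached 30.2% in mouse 4, and collagen processing enzymes stood higher at 33.0%, 32.2%, 31.9% and 42.5%.

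The same feature was seen across genes. Among the 2399 genes higher in CCL206 cells with at least 50 CPM there, the lowest Epcam+ level was 9.24% of the fibroblast level (Adamtsl3), and no other was under 10%. Among the 2236 genes higher in Epcam+ cells with at least 50 CPM, 140 stood under 10% and 57 under 5% in the CCL206 fraction, down to 0.294% (Krt5). A fold change against either fraction is therefore bounded by what the other fraction's libraries held of it, and how much of this came from cells of the other kind, from free RNA or from expression by the cells themselves was not tested.

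**Figure D5:**
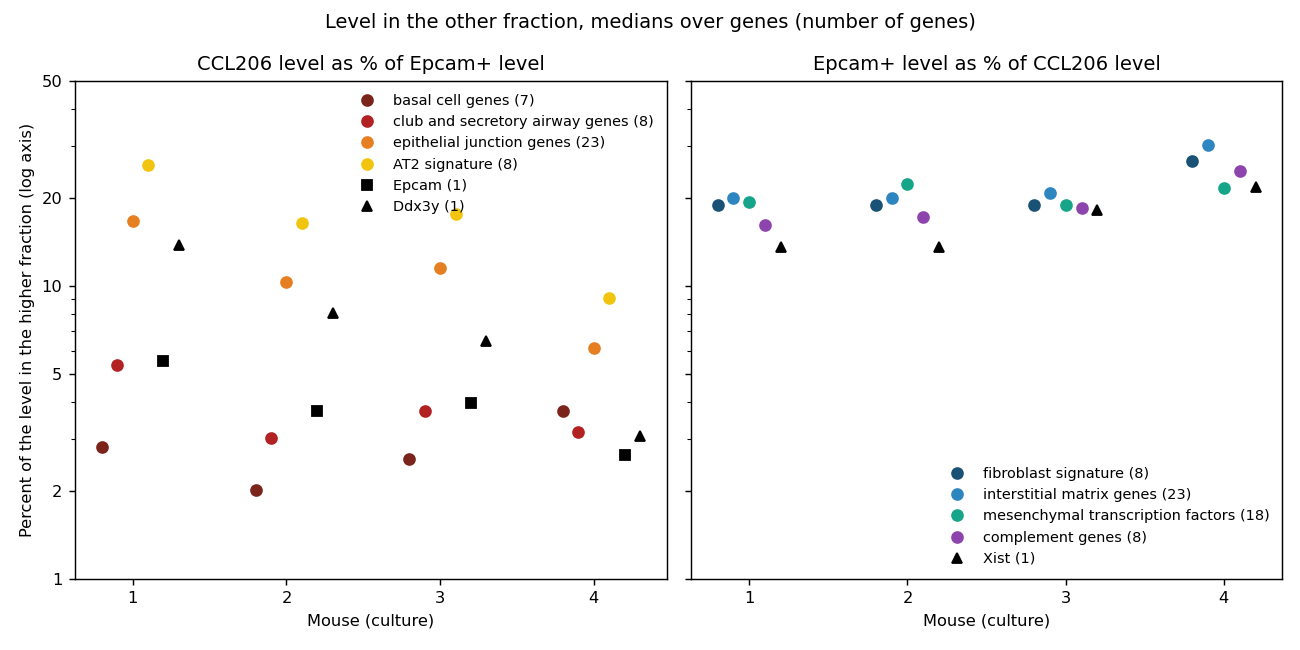
Level in the other fraction as a percent of the level in the fraction where the genes were higher (log axis), by mouse, for single genes and for list medians. Basal and club genes lie between 2.01% and 5.38%, AT2 genes between 9.12% and 25.8%, and the fibroblast lists and Xist between 13.6% and 30.2%.

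The contrast was also measured in the treated cultures of the same mice, in separate fits. The EVs cultures stood apart from the others: each EVs CCL206 library had a median Spearman correlation of 0.936 to 0.963 with the other libraries of its group, against 0.967 to 0.991 in the other groups. Xist stood at 457, 359.7, 524 and 386 CPM in the EVs Epcam+ libraries and at 1628, 600.2, 1270.0 and 509.6 CPM in the EVs CCL206 libraries. The EVs CCL206 libraries of mice 2 and 4 thus held less Xist than those of mice 1 and 3, so counts and changes in EVs cultures are given with all 4 mice and, as an alternative chosen after the data were seen, without mice 2 and 4. The latter fit has only 1 residual degree of freedom, and its p-values could be far smaller for it. For Krt5 the edgeR adjusted p was 1.9e-07 with all 4 mice and 1.3e-280 without mice 2 and 4. Its calls thus say little of the spread between cultures, and its shares of calls are not like for like with those of all 4 mice. The contrast called 55.6% of the genes tested in EVs cultures (55.9% without mice 2 and 4), 67.8% in SFs cultures and 70.8% in OGN cultures, in either direction. Of the 8389 genes called with vehicle, 63.5% were called in the same direction with EVs, and 70.6% were without mice 2 and 4. For SFs and OGN these shares were 87.1% and 89.4% of the genes higher in Epcam+ cells and 84.8% and 89.0% of those higher in CCL206 cells. Krt5 differed by 8.46 (8.71 without mice 2 and 4), 8.66 and 7.67 with EVs, SFs and OGN, Wnt7b by 6.16 (6.18), 7.15 and 4.39, and Fgf10 by -2.30 (-2.45), -2.42 and -2.96. Sftpc, not called with vehicle, was called in all of them at 1.10 (1.34), 2.13 and 1.64. Xist differed by -1.09 in EVs cultures (-1.55 without mice 2 and 4) against -2.27 and -2.68 in the others. Of the genes called more than 2-fold with vehicle, 29 were called in the opposite direction with EVs, 28 of them higher in Epcam+ cells with vehicle, and without mice 2 and 4 there were 13. The 1 gene higher in CCL206 cells among the 29 was Zfp846, and its EVs call was lost without mice 2 and 4 (0.84). With SFs 1 gene (Gm6789) and with OGN 1 gene (Slc7a2) were called in the opposite direction. The vehicle call of Gm6789, a low transcript at 1.07, 5.28, 1.45 and 2.55 CPM against 0.761, 1.68, 0.569 and 0.499 CPM (1.42), was lost without mouse 2, 3 or 4, at 1.34, 1.44 and 1.18. Whether the contrast itself differed between treatments was not tested.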

How the data were processed

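Bulk RNA was sequenced from the Epcam+ and CCL206 fractions of cultures from 4 mice. The authors deposited raw counts of reads per gene, 1 column a library, with replicates kept apart. Adapters were trimmed with Trimmomatic 0.30, and DESeq2 1.34.0 is also listed in the submitters' processing notes. The labels name the genome build GRCm39 and the study's methods GRCm38 patch 6, so no coordinates of the reads were used. The aligner, counter, annotation and use of strand are not given in the sources used here, so overlapping, antisense and near-identical genes may share reads. The table holds 11818 genes, each with at least 1 count in every library, and the lowest count was 1 for 660 genes. Genes silent in any library are therefore not in it, though the filter that was used is not given in the sources used here. Lists may be short of such members, and counts over lists refer to the genes that remained. All columns were assigned to samples (0 were left out).

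From the counts, the 8 vehicle libraries were fitted in edgeR 4.0.16 (R 4.3.3) with TMM factors, a term for mouse and a term for fraction, and tested by quasi-likelihood with Benjamini-Hochberg adjustment (threshold 0.05). filterByExpr left out 69 genes, and 3 residual degrees of freedom remained. The pairing comes from the labels, in which both fractions of a culture carry 1 mouse number. Deviations from the group means correlated at 0.182, 0.135, 0.0812 and 0.0581 between the fractions of mice 1 to 4. Between fractions of different mice these correlations ran from -0.154 to 0.103. The Epcam+ library of mouse 4 reached 0.103 with the CCL206 library of mouse 3, and that of mouse 3 reached 0.0928 with the CCL206 library of mouse 4. These values therefore do not set the pairs of mice 3 and 4 apart. Library totals spread from 3067660 to 16662822 counts, so low genes were read least precisely in the shallowest Epcam+ library. Reads carried no molecular identifiers.

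Members and gene lists were chosen with earlier results of these data known, and so describe them without independent support. Genes were named by a rule. In each direction it took the 10 largest called differences with 1 sign in all 4 cultures and at least 50 CPM in the higher fraction. From each list it took the 3 largest called members per direction and the 2 with the highest CPM, and from each pathway the ligands and receptors called at over 2-fold and the member of each role with the highest CPM. Epcam, Ogn, Fgf2, Fgf7, Fgf10, Hgf, Wnt5a and Wnt7b were added. Any other gene named, such as Zfp846, Gm6789, Slc7a2, Fosb or mt-Co3, was chosen after its values were seen. Some genes that the rule names are not reported here. Promoter windows came from RefSeq, GRCm38.p6, and transcript lengths from the canonical transcripts of the GENCODE mouse annotation, both matched by symbol. Alternatives were other scalings, filters, no mouse term, DESeq2 1.42.0, a fit of all 32 libraries, a test against 2-fold and leaving out each mouse. Fits were tested on simulated counts. Python 3.11.15, scipy 1.17.1 and matplotlib 3.10.9 served for the permutation test, lists and plots.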

Additional observations from a re-analysis of the deposited data

Results flagged for a closer look

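In each group of 4 libraries, the gap of the highest or lowest value to its nearest neighbour was set against the whole range of the group. Of 466 groups examined (library totals, shares of the top 50 and of mitochondrial genes, and the genes named), 25 held a value far from the others (5.36%), and chance alone gives about 1 in 20. The total of the mouse 1 Epcam+ library, 16662822 counts, was one of them.

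In the Epcam+ fraction mouse 4 stood above the other mice for genes that were higher in fibroblasts: Fgf7 (28.3 CPM), Adamts14 (36.5 CPM), C4b (31.1 CPM), Itga8 (5.09 CPM) and Timp2 (732 CPM). It stood below them for the chloride channel gene Gabrp (109.5 CPM). Mouse 2 was low for Foxj1 (166 CPM) and Mmp10 (0.33 CPM) and high for Dgat2 (5.60 CPM), and mouse 3 was high for Cyp51 (282 CPM) and Npnt (77.3 CPM).

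In the CCL206 fraction mouse 1 was high for the epithelial genes Elf3 (6.64 CPM) and Itgb6 (9.90 CPM) and low for B2m (923 CPM) and Ndufa2 (17.5 CPM). Mouse 2 was low for Adamtsl3 (46.6 CPM) and Fzd4 (7.02 CPM) and high for Gas1 (165 CPM) and Fbln1 (3.65 CPM). Mouse 3 was low for Csf1 (417 CPM) and Wnt5a (70.0 CPM), and mouse 4 was low for Aqp3 (1.70 CPM), Loxl3 (113 CPM) and Tgfa (10.99 CPM).

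Of the genes named, 4 lay in opposite directions in every one of the 4 cultures with vehicle and in every one with another agent, as mean log2 differences (Epcam+ minus CCL206), and these differences between treatments were not tested. Notch2 stood at 0.547 with EVs against -0.399 with vehicle. Its EVs differences were 0.00492, 1.02, 0.0873 and 1.08 in mice 1, 2, 3 and 4, so the mean rests on mice 2 and 4, whose EVs CCL206 libraries stood apart, and without these mice the EVs log2 fold change of Notch2 was 0.05. Tead1 stood at 0.64 with EVs against -0.324 with vehicle, from 0.0675, 1.14, 0.449 and 0.904 in the single EVs cultures, and its EVs log2 fold change was 0.61 with all mice and 0.27 without mice 2 and 4. Zfp846 stood at 0.861 with EVs against -1.17 with vehicle, from 0.85, 0.591, 0.572 and 1.43. The edgeR EVs calls of Notch2, Tead1 and Zfp846 (adjusted p = 0.041, 0.012 and 0.036) were lost without mice 2 and 4 (0.77, 0.088 and 0.16). Slc7a2, a transporter of basic amino acids, stood at -0.969 with OGN against 0.975 with vehicle.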

How the results depend on the processing

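The counts of genes higher in each fraction moved by less than 1.5 times under every alternative run. With no filter 4347 genes were higher in Epcam+ cells and 4115 in CCL206 cells, and with a minimum of 10 counts per library, which leaves fewer genes to test, these were 3916 and 3770. DESeq2 called 3998 and 4022, and the fit of all 32 libraries 4143 and 4051. Leaving out each mouse in turn gave 3737 to 4082 and 3845 to 3998 calls. The 10-count minimum also lowered some list counts, from 3 to 0 and 5 to 2 for WNT ligands (Epcam+ and CCL206), from 5 to 3 and 3 to 2 for semaphorins, and, in CCL206 cells, from 8 to 4 for integrins and 5 to 3 for intermediate filament genes. A test against a 2-fold change called 1350 and 1361 genes in place of 1918 and 1894. Between 89.6% (without mouse 3) and 99.8% (other scalings) of the 8389 calls were kept, and the scalings moved the median of all genes by at most 0.0215 on the log2 scale. Without the pairing (no mouse term) 4222 and 4196 genes were called. Among the genes named, dropping the pairing gained the calls of Sftpc (1.27) and Plxnb2 (0.17) and lost those of Dgat2 (-0.94), Atf3 (0.50) and Gm6789 (1.40), and it changed no other call. Over 308 named genes and 12 alternatives, 3628 of 3656 values kept their direction and their side of the threshold, 20 lost and 8 gained a call, and 0 reversed. These changes fell on 12 genes. The mitochondrial transcript mt-Co2 lost its call under DESeq2 (1.33) and without mouse 2, 3 or 4 (0.96, 1.54 and 0.73), mt-Atp6 without mouse 2 (1.18), and mt-Cytb and Tead1 in the fit of all 32 libraries (0.42 and -0.31), while Sftpc gained one there (1.26). The causes were not tested. Shallow Epcam+ libraries limit what can be read of genes under a few CPM.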

Other observations

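Immediate-early genes, which cells switch on within minutes of a stimulus, differed between cultures as well as between fractions. Fosb, an AP-1 subunit gene, stood at 265, 290.1, 55.2 and 100.5 CPM in the Epcam+ libraries of mice 1, 2, 3 and 4 and at 1308, 1303, 232 and 247 CPM in the CCL206 libraries (log2 fold change -1.98 ± 0.14, edgeR adjusted p = 3e-07). Fos, another AP-1 subunit gene, stood at 167, 197, 88.2 and 90.6 CPM against 488, 437, 176 and 189 CPM (-1.20). Egr1, a zinc finger factor, stood at 149, 151, 64.7 and 71.6 CPM against 718, 651, 221 and 208 CPM (-1.94). In both fractions mice 1 and 2 were thus above mice 3 and 4, and each fibroblast library stood above the Epcam+ library of its own mouse. Fosb and Fos showed the same order of mice in all 8 groups of the series. Atf3, a stress-induced factor, had that order in both vehicle fractions, at 72.4, 98.9, 31.4 and 50.9 CPM against 80.3, 68.3, 15.1 and 16.5 CPM. It was higher in the Epcam+ library in mice 2, 3 and 4 and lower there in mouse 1 (0.68 ± 0.23, edgeR adjusted p = 0.018). Its call was lost with no mouse term (0.50), without mouse 3 (0.58) and without mouse 4 (0.41).

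The mitochondrial transcript mt-Co3 stood at 20.1, 156, 49.2 and 121 CPM in Epcam+ libraries and at 40.2, 53.04, 47.5 and 22.2 CPM in CCL206 libraries, so the mouse 1 Epcam+ library was the lowest of all 8, as for Sftpc. It was not called (log2 fold change 0.76 ± 0.43, edgeR adjusted p = 0.13), and without mouse 1 it was (1.35).

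Across genes, longer transcripts tended to have lower log2 fold changes (Epcam+ minus CCL206), with a Spearman correlation of -0.166. It covered the 11552 genes with a canonical transcript length in GENCODE, which are 98.3% of those tested. Within the single cultures it was -0.142, -0.14, -0.129 and -0.207. Genes are not independent replicates, so no p-value is given.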
